A study of Mus musculus with 12 samples.

Results

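Naive CD4 T cells from 3 untreated mice were compared across the Ly6C gate at an intermediate level of the Nur77-GFP reporter. Population C was sorted as Ly6C negative and population B as Ly6C positive, both as CD4+, CD44 low, FoxP3-RFP negative and Nur77-GFP intermediate cells. Each mouse gave 1 library of each population, so the comparison holds 6 of the 12 libraries of the series, named here by population and mouse (B1, C1 and so on). The remaining libraries are population A (Nur77-GFP low, Ly6C positive) and population D (Nur77-GFP high, Ly6C negative). All mice, of all 4 populations, carried the Tg(Nr4a1-EGFP)GY139Gsat reporter transgene and the Foxp3tm1Flv targeted allele on a C57/BL6 background, and none was treated. Cells came from spleen and lymph nodes. A gene entered the comparison where its mean over the 6 libraries was at least 0.5 RPKM (reads per kilobase of transcript and per M reads), which kept 10019 of the 10073 genes in the table. Depth, recovered from the steps in the RPKM values, was 6.59 to 9.07 M reads (M, mega) in the 6 libraries.

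Nur77, the product of Nr4a1, is an orphan nuclear receptor whose gene is switched on within hours of T cell receptor (TCR) engagement. The reporter places GFP under Nr4a1 regulatory sequence, and in resting naive T cells its brightness is used as a gauge of the recent, self-peptide driven signal known as tonic TCR signalling. Ly6C is a GPI-anchored surface protein that naive CD4 T cells carry in varying amounts, and cells with strong tonic signals are known to carry less of it. CD5, an inhibitory receptor, is the classical surface readout of the same signal and is higher where self-reactivity is higher.

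The transcripts of the sorted markers did not all follow the labels. Ly6c1, which encodes one form of Ly6C, read 50.2, 37.1 and 44.5 RPKM in B1, B2 and B3, and 67.0, 66.7 and 59.3 RPKM in C1, C2 and C3. All 3 libraries labelled Ly6C negative therefore lay above all 3 labelled Ly6C positive, against the direction of the gate, with a log2 difference of 0.55 (exact permutation p = 0.1, two-sided, the smallest that 3 against 3 libraries allow; 0.167 after adjustment over 5 such checks). In the other populations Ly6c1 was 58.1 to 72.6 RPKM in A and 38.3 to 48.4 RPKM in D. Ly6c1 has a near-identical paralog, Ly6c2, which was not analysed here, so its level is uncertain. Below, B and C stand for the libraries so labelled, and every direction drawn between them carries this mismatch.

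Nr4a1, the gene behind the reporter, was lower in every library of C than in every library of B, although both populations were gated at the same reporter level. It read 36.0, 73.3 and 64.7 RPKM in B1, B2 and B3, against 26.3, 28.3 and 23.4 RPKM in C1, C2 and C3, a log2 difference of -1.08 (exact permutation p = 0.1; adjusted 0.167). B1 was nearer to C than to B2 and B3. D read 58.8 to 67.8 RPKM, while A was split, with 57.7 RPKM in A1 and 22.9 to 26.1 RPKM in A2 and A3. Foxp3, the master factor of regulatory T cells and a gene the sort selected against, was low throughout, at 1.51, 4.00 and 3.88 RPKM in B1, B2 and B3 and at 1.27 to 1.45 RPKM in C (log2 difference -0.87; exact permutation p = 0.1; adjusted 0.167). Cd4 (224 to 250 RPKM) and Cd44 (5.92 to 12.8 RPKM) overlapped between B and C, with exact permutation p of 0.2 and 0.3 (adjusted 0.25 and 0.3).

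B1 and C3 stood apart from the other libraries of their label. On the first principal component of all 12 libraries (39.9% of the variance), B2 and B3 scored 13.7 and 12.0, while B1 scored -9.31, beside C1, C2 and C3 at -11.8, -10.8 and -11.6. B1 was also closer to C2 than to B2 across genes (Pearson r of 0.996 and 0.987 over 10019 log2 levels, a description, since genes are not replicates). C3 stood apart on the second component (23.1% of the variance), at 27.3 against -8.39 to 1.64 in all other libraries. Outside the comparison, A1 mirrored B1: it scored 8.02 on the first component against -12.3 and -13.5 in A2 and A3, with Myb at 58.7 RPKM against 5.80 and 4.81 RPKM and Eomes at 7.62 RPKM against 0.298 and 0.315 RPKM. On the first component A2 and A3, labelled Ly6C positive, thus lay on the side of C. The libraries of D, labelled Ly6C negative, scored 10.85 to 12.69, on the side of B2 and B3. Whether A1 and B1, or B and C as a whole, carry the right labels was not tested. If A1 and B1 do not, the comparison of all 6 libraries holds cells other than the label of B1 says. Values without B1 rest on B2, B3 and the libraries of C.

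C3 was also the library with transcripts of other cell types. Jchain, the joining chain of secreted antibodies, read 709 RPKM in C3 and 0.555 to 3.93 RPKM in the other 5 libraries, and the 9 of 16 plasma cell markers present in the table summed to 1475 RPKM against 177 to 195 RPKM. Cd74, the invariant chain of MHC class II, read 209 RPKM in C3 against 3.12 to 18.2 RPKM, Cd79a of the B cell receptor 37.4 against 3.57 to 8.80 RPKM, and Mki67, a marker of cycling cells, 17.1 against 0.55 to 3.27 RPKM. The 3 of 20 B cell markers present summed to 249 RPKM in C3 and 7.14 to 27.6 RPKM elsewhere. The T cell identity of all 6 libraries was otherwise even: 11 of 12 CD4 T cell markers, such as Cd3e, Lck and Tcf7, were present and summed to 2446 RPKM in C3 and 2571 to 2731 RPKM in the other 5. Of the CD8 markers only Cd8b1 was present, at 9.94 to 11.5 RPKM in B and 12.7 to 16.0 RPKM in C, and the 4 defining NK and innate-like markers were not analysed here. The 4 of 26 myeloid and dendritic markers present summed to 213 RPKM in C3 and 128 to 148 RPKM in the other 5, and the 5 of 28 wider NK and innate-like markers to 55.2 and 51.4 RPKM in B2 and B3 and 37.3 to 41.1 RPKM in B1 and C. The haemoglobin genes Hbb-bs and Hba-a2 followed neither the population nor the mouse number. Hbb-bs was 14.0 RPKM in B1 and 4.78 RPKM in C2 but 79.1 to 93.7 RPKM in the other 4 libraries, and 6.98 RPKM in A1 and 12.7 RPKM in D2. These genes were named after their values were seen, and the part of such transcripts in the comparison of C with B was not tested unless a value without C3 is given.

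**Figure D1:**
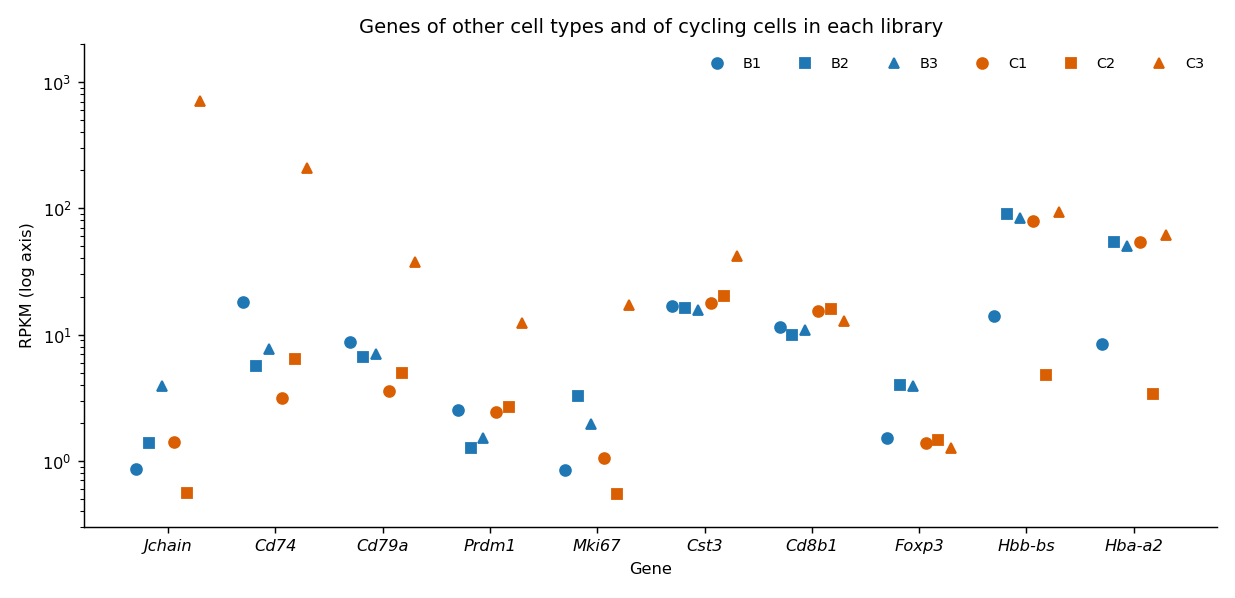
Level of 10 genes of other cell types, cycling cells and red cells in each of the 6 libraries, in RPKM on a log axis, with blue for B, orange for C and the marker shape for the mouse. C3 is highest for Jchain at 709 RPKM, Cd74 at 209 RPKM, Cd79a, Prdm1, Mki67 and Cst3, and both haemoglobin genes are lowest in B1 and C2.

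Across the 6 libraries no gene separated C from B at the threshold. With limma on log2(RPKM + 0.5), 0 of 10019 genes (0.0%) had an adjusted p under 0.05, the smallest adjusted p was 0.471, and 1025 genes had an unadjusted p under 0.05, of which 389 were higher and 636 lower in C. All 3 values of C lay outside the range of B for 1513 genes (15.1%), above B for 633 (6.32%) and below B for 880 (8.78%). When B1 was left out, 280 genes (2.79%) passed, 66 higher (0.659%) and 214 lower (2.14%) in C than in B2 and B3. The genes lower in C had the wider spread of differences, with a median of -0.77 and a range of -3.63 to -0.27 on the log2 scale, and 83 of the 214 differed by at least 1. The genes higher in C had a median of 0.45 and a range of 0.26 to 1.16, and 2 of the 66 differed by at least 1. B1 was left out because of its own values, so adjusted p-values without it overstate the evidence for a difference between the gates and are given to rank genes. In these bulk samples fewer cells of a type and less RNA per cell cannot be told apart.

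The 280 genes were then followed back into B1, which had no part in that fit. Of them, 138 (49.3%) had all 3 values of C on the outer side of all 3 values of B, 102 of the 214 lower genes and 36 of the 66 higher genes. The genes were selected for a difference of C from B2 and B3, so this count adds only the side of B1. Over all genes tested, B1 lay outside C on the side of B2 and B3 for 29.3%. For 116 of the 280 (41.4%), B1 lay inside the range of C itself, a share below the 56.7% of all genes tested. On a scale where 0% is the mean of C and 100% the mean of B2 and B3, both in log2, B1 sat at a median of 10.6% (24.6% over all genes tested), and 17 of the 280 genes put it past the midpoint. The 83 genes with the larger differences put B1 at 4.95%, the 131 lower genes with smaller differences at 14.1%, and the 66 higher genes at 15.9%. Since C enters both axes of this scale, these positions are descriptions.

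**Figure D2:**
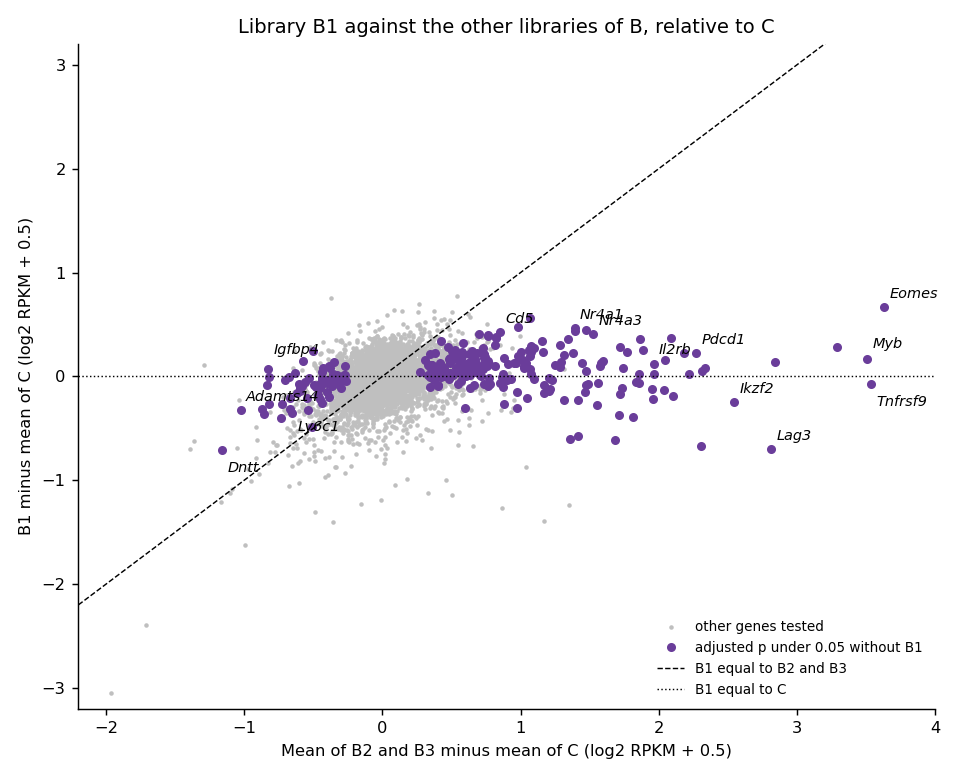
Each point is a gene: the mean of B2 and B3 minus the mean of C (horizontal) against B1 minus the mean of C (vertical), both in log2(RPKM + 0.5), with the 280 genes of adjusted p under 0.05 without B1 in purple. Most purple points lie nearer to the dotted line where B1 equals C than to the dashed line where B1 equals B2 and B3. Dntt, Ly6c1 and Cd5 lie about midway between these lines.

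Among the named genes, B1 took a range of positions from that of C towards that of B2 and B3. Dntt, Cd5, Cd6 and Ly6c1 put B1 about midway, at 49.9 to 61.2% of the distance. Nr4a3, Nr4a1 and Il6st put it at 27.0, 33.4 and 34.0%. Myb, Eomes, Tnfrsf9, Pdcd1 and Il2rb put B1 near C, at -2.10 to 18.4%. These positions follow in part from how genes were named. Non-overlap in all 6 libraries requires B1 to lie apart from C, whereas a large difference without B1 does not. Separate patterns are therefore not shown.

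**Figure D3:**
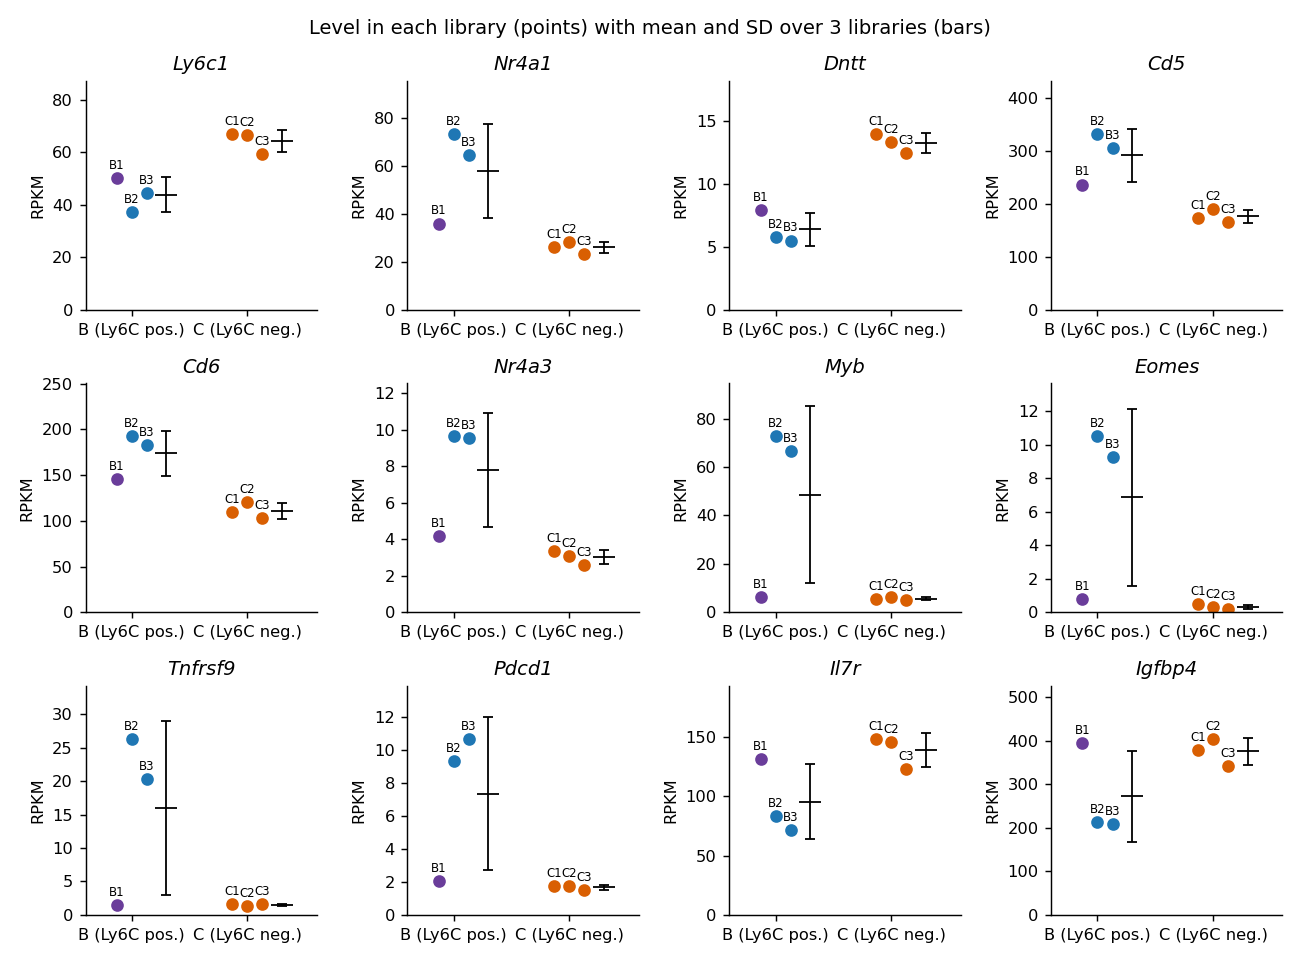
Level of 12 genes in each of the 6 libraries, in RPKM, with points for libraries (B1 purple, B2 and B3 blue, C orange) and bars for the mean and SD over the 3 libraries of each label. B1 lies between the other libraries of B and those of C for Dntt and Cd5 and beside C for Myb, Tnfrsf9 and Igfbp4.

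The Nr4a family of orphan nuclear receptors, immediate targets of TCR signalling, was lower in C than in B2 and B3 for all 3 members. Nr4a3 read 4.17, 9.63 and 9.55 RPKM in B1, B2 and B3 against 3.36, 3.11 and 2.62 RPKM in C, so that the groups did not overlap (log2 difference -1.15 ± 0.28 SE, adjusted p = 0.471; -1.52 ± 0.12 without B1, adjusted p = 0.0015, limma). Nr4a1 gave -1.39 ± 0.09 without B1 (adjusted p = 0.00071). Nr4a2, named with its family after its values were seen, was close to the lower limit, at 0.137, 2.36 and 1.28 RPKM in B and 0.249 to 0.298 RPKM in C, with B1 below every library of C (-0.94 ± 0.47, adjusted p = 0.548; -1.55 ± 0.22 without B1, adjusted p = 0.0147). B1 lay at 33.4% of the distance for Nr4a1 and at 27.0% for Nr4a3. The 3 promoters are shown because the reporter reads one of them and the family is a textbook target of CREB, the cAMP response element binding protein. Each is given as the 250 bases before the start, from RefSeq on GRCm38.p6, 5′ to 3′ on the gene's strand, and capitals mark the half-site of the cAMP response element, CGTCA, on either strand (TGACG when read on the strand printed), with no other motif searched.
Nr4a1, chr15:101266596-101266845, plus strand: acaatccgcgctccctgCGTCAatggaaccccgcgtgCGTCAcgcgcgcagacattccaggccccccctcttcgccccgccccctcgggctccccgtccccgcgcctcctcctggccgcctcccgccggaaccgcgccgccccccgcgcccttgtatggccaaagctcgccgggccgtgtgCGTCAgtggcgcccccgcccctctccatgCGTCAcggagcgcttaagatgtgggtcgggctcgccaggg
Nr4a2, chr2:57124004-57124253, minus strand: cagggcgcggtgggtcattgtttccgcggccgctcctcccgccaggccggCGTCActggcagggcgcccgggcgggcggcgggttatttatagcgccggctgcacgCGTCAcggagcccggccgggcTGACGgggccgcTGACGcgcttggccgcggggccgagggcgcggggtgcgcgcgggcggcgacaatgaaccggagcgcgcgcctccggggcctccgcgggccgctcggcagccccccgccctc
Nr4a3, chr4:48045055-48045304, plus strand: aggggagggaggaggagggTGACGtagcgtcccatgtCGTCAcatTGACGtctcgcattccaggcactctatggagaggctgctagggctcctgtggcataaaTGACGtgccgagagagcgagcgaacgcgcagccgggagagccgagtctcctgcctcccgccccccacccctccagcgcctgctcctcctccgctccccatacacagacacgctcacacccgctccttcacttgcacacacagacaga
Each of the 3 holds 4 half-sites, whereas at least 1 is found in 17.9% and at least 4 in 0.152% of the 27025 promoters of the same length in the table. These matches describe the sequence, and no binding was measured.

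Genes induced early by TCR signals leaned lower in C. Of the 38 measured members of that list, 9 lay below and 2 above B in all 6 libraries (28.95% together, against 15.1% of all genes). The median log2 difference was -0.22, against -0.0044 for all genes tested. Without B1, 12 were lower and 1 higher (median -0.29, 34.2% together against 2.79% of all genes). By direction, 8.78% of all genes lay below and 6.32% above B, and 2.14% were lower and 0.659% higher without B1. Cd5 read 236, 332 and 305 RPKM in B1, B2 and B3 and 173, 190 and 165 RPKM in C1, C2 and C3, with no overlap (-0.71 ± 0.12, adjusted p = 0.471; -0.85 ± 0.07 without B1, adjusted p = 0.0022). Its neighbour on the chromosome and relative in structure, the scavenger receptor Cd6, read 146, 192 and 183 RPKM against 109, 120 and 103 RPKM (-0.64 ± 0.11, adjusted p = 0.471; -0.76 ± 0.07 without B1, adjusted p = 0.0035). Both put B1 near the midpoint, at 49.9% and 52.3%. Rel, the NF-kB subunit c-Rel, did not overlap either, at 19.3, 19.8 and 20.7 RPKM in B and 15.0 to 16.6 RPKM in C, but missed the threshold without B1 as well (adjusted p = 0.055). Tnfrsf9, the costimulatory receptor 4-1BB, had 1.43, 26.4 and 20.3 RPKM in B1, B2 and B3 and 1.38 to 1.65 RPKM in C. It was 15.2 times as high in B2 and B3 as in C (-3.54 ± 0.14 without B1, adjusted p = 0.00015), with B1 inside the range of C. The other members lower without B1 were Spry1, Il2ra, Tnfrsf4, Egr3, Nr4a2, Dusp4 and Egr2, with Nr4a1 and Nr4a3 described above. Cd40lg, the ligand of CD40 on helper cells, went the other way, at 75.3 to 90.9 RPKM in B and 104 to 105 RPKM in C (0.32 ± 0.07, adjusted p = 0.471; 0.38 ± 0.06 without B1, adjusted p = 0.027).

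Genes of anergy and tolerance, the programme of T cells made unresponsive by chronic antigen, had the largest share of members below B of the 28 lists examined. The lists were chosen with earlier results of these data known, so this order is a description. Members such as Nr4a1, Egr2, Ikzf2 and Pdcd1 also belong to other lists given here. Of the 26 measured members of the anergy list, 12 lay below B and 0 above in the 6 libraries (median -0.87, 46.2% below against 8.78% of all genes). Without B1, 20 were lower and 0 higher (median -1.18, 76.9% lower against 2.14% of all genes). The difference sat in mice 2 and 3: the list's median C minus B was -0.13 in mouse 1, -1.07 in mouse 2 and -1.09 in mouse 3. Eomes, a T-box factor of memory and cytotoxic cells, read 0.829, 10.5 and 9.25 RPKM in B1, B2 and B3 and 0.475, 0.338 and 0.218 RPKM in C. B2 and B3 were 28.7 times as high as C, and B1 lay just above all of C (-2.64 ± 0.71, adjusted p = 0.471; -3.63 ± 0.17 without B1, adjusted p = 0.0003). Ikzf2, the Ikaros family factor Helios, read 0.444, 6.62 and 5.49 RPKM against 0.568 to 0.686 RPKM (-2.54 ± 0.14 without B1, adjusted p = 0.00037). Ikzf4, which encodes Eos of the same family, read 2.08, 8.67 and 8.81 RPKM against 2.12 to 2.42 RPKM (-1.73 ± 0.10 without B1, adjusted p = 0.00046). For both, B1 lay below every library of C. Dgkz, the diacylglycerol kinase that limits Ras signalling, differed less but in all libraries, at 110, 157 and 152 RPKM in B and 97.4 to 107 RPKM in C (-0.61 ± 0.06 without B1, adjusted p = 0.0035).

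Inhibitory receptors, which dampen TCR signals at the surface, had 4 of 14 measured members below B and 0 above in the 6 libraries (median -0.25). That is 28.6% below, against 8.78% of all genes. Without B1, 6 were lower, namely Pdcd1, Cd200, Cd5, Lag3, Cd6 and Ctla4 (median -0.62, 42.9% against 2.14% of all genes). Pdcd1, which encodes PD-1, read 2.04, 9.35 and 10.7 RPKM in B1, B2 and B3 and 1.77, 1.74 and 1.52 RPKM in C, a difference of -2.27 ± 0.12 without B1 (adjusted p = 0.00037). Lag3, a receptor for MHC class II, read 0.985, 17.1 and 15.9 RPKM against 1.49, 1.53 and 3.00 RPKM. Its log2 difference was -1.64 ± 0.85 with all 6 libraries (adjusted p = 0.556, limma) and -2.81 ± 0.24 without B1 (adjusted p = 0.0023). B1 was thus just above C for Pdcd1 and below all of C for Lag3, for which C3 was the highest library of C. Cd200, a ligand of an inhibitory receptor, read 3.44, 16.0 and 12.9 RPKM against 3.15 to 4.29 RPKM (-1.86 ± 0.15 without B1, adjusted p = 0.0015).

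T follicular helper genes are those of the T cells that help B cells in germinal centres. They had 5 of 21 below B and 0 above in the 6 libraries (median -0.49, 23.8% below against 8.78% of all genes). Without B1, 12 were lower (median -0.63, 57.1% against 2.14% of all genes). Bcl6, the factor that defines this cell, read 7.62, 20.6 and 18.9 RPKM in B1, B2 and B3 and 6.66 to 7.28 RPKM in C (-1.01 ± 0.32, adjusted p = 0.471; -1.45 ± 0.08 without B1, adjusted p = 0.00045). Cxcr5, the receptor that guides cells into follicles, read 5.13, 14.1 and 15.0 RPKM against 4.52 to 5.24 RPKM, with B1 inside the range of C (-1.47 ± 0.10 without B1, adjusted p = 0.00063). Il6st, the shared signalling chain gp130, separated all 6 libraries, at 84.4, 110 and 115 RPKM in B and 71.0 to 75.9 RPKM in C (-0.49 ± 0.11, adjusted p = 0.471; -0.63 ± 0.06 without B1, adjusted p = 0.0024). Id3, an inhibitor of E proteins, read 29.9, 45.4 and 37.5 RPKM against 23.7 to 25.9 RPKM (-0.73 ± 0.09 without B1, adjusted p = 0.0094).

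Regulatory T cell genes were lower in C than in B2 and B3 although the gate excluded FoxP3-RFP positive cells. Of 14 measured, 6 lay below B and 0 above (median -0.77, 42.9% below against 8.78% of all genes). Without B1, 10 were lower (median -1.16, 71.4% against 2.14% of all genes), among them Foxp3 at -1.25 ± 0.12 (adjusted p = 0.0032). Izumo1r, which encodes the folate receptor 4 of regulatory and anergic cells, read 28.8, 55.3 and 59.3 RPKM in B1, B2 and B3 and 21.8 to 25.6 RPKM in C (-0.96 ± 0.24, adjusted p = 0.471; -1.28 ± 0.08 without B1, adjusted p = 0.00057). Il2ra, the alpha chain of the interleukin 2 receptor, read 0.29, 2.85 and 2.42 RPKM against 0.548 to 0.758 RPKM. Its log2 difference was -0.75 ± 0.49 with all 6 libraries (adjusted p = 0.627, limma) and -1.41 ± 0.15 without B1 (adjusted p = 0.0056). The defining markers Foxp3, Il2ra and Ctla4 summed to 9.80, 35.1 and 27.3 RPKM in B1, B2 and B3 and to 7.63, 12.1 and 12.8 RPKM in C1, C2 and C3. That sum moved with the anergy, inhibitory receptor and follicular helper lists, which share members with this one, and its part in them was not tested.

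**Figure D4:**
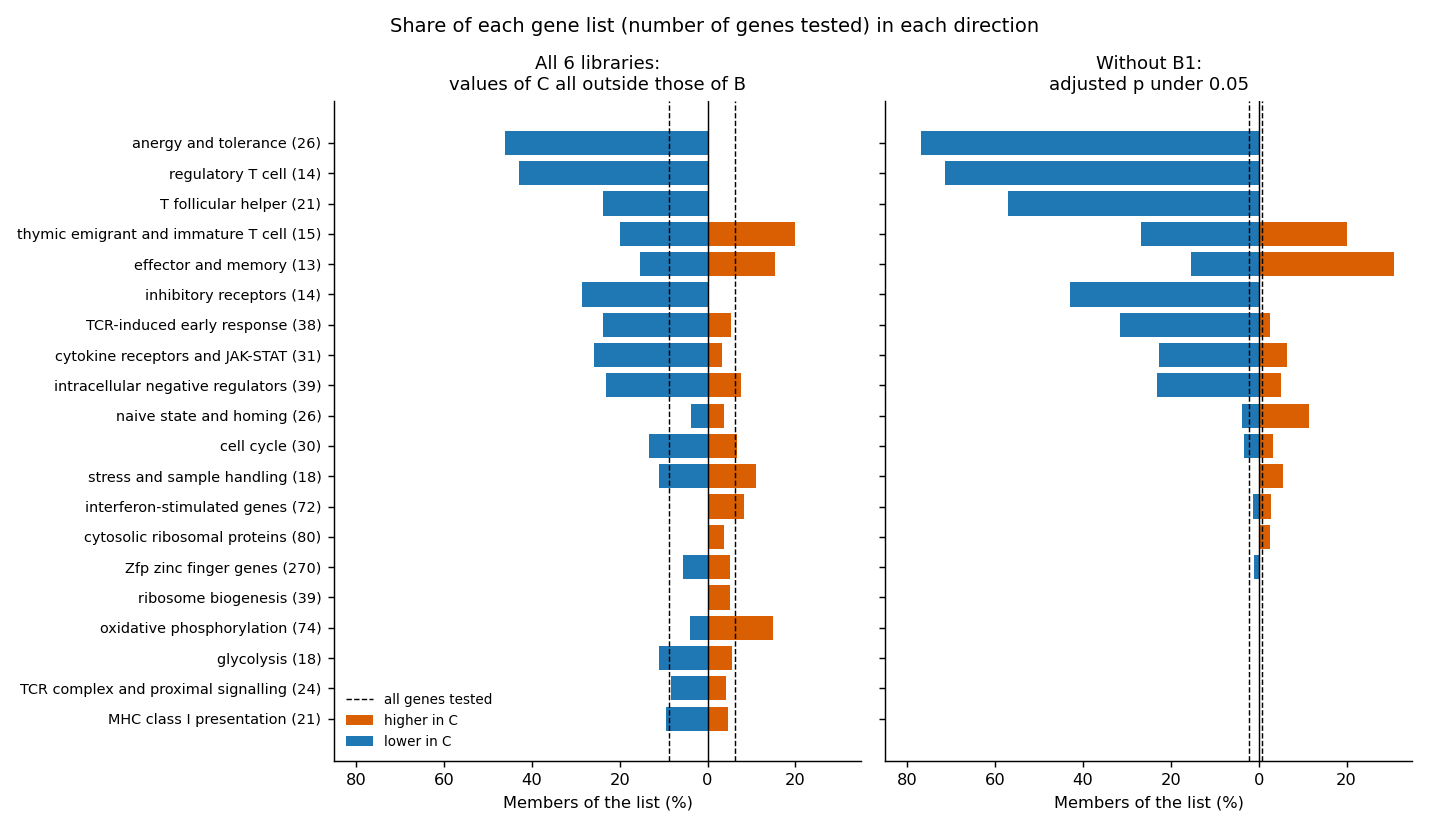
Share of the measured members of 20 gene lists (number tested in brackets) that were lower in C (blue, left of 0) or higher in C (orange, right), as values outside those of B in all 6 libraries (left panel) and as adjusted p under 0.05 without B1 (right panel), with dashed lines for all genes tested. The lists of anergy and regulatory T cell genes reach furthest to the left in both panels, while TCR complex, oxidative phosphorylation and MHC class I genes have no call in the right panel.

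Genes of immature T cells and recent thymic emigrants went both ways. Dntt, the terminal transferase that adds nucleotides at V(D)J junctions in the thymus, gave the smallest p of all genes in the 6 libraries. It read 7.91, 5.79 and 5.52 RPKM in B1, B2 and B3 and 14.0, 13.4 and 12.5 RPKM in C1, C2 and C3, so that every library of C exceeded every library of B (1.01 ± 0.13, adjusted p = 0.471; 1.16 ± 0.09 without B1, adjusted p = 0.0012). In a fit with all 12 libraries sharing 1 estimate of the spread, Dntt alone passed (adjusted p = 0.0187). Myb, a transcription factor of progenitors, read 6.44, 72.7 and 66.5 RPKM against 5.25 to 6.28 RPKM, so that B2 and B3 were 12.3 times as high as C while B1 sat just above it (-2.40 ± 0.79, adjusted p = 0.471; -3.51 ± 0.09 without B1, adjusted p = 2.1e-05). Sox4, another factor of immature cells, read 4.88, 17.7 and 14.8 RPKM against 3.28 to 4.56 RPKM (-1.89 ± 0.15 without B1, adjusted p = 0.0015). Adamts14, a secreted metalloprotease gene, was higher in C, at 2.71 to 5.46 RPKM in B and 6.80 to 7.24 RPKM in C (1.03 ± 0.13 without B1, adjusted p = 0.01). Of the 15 measured members, 3 lay above and 3 below B in the 6 libraries, together a larger share than the 15.1% of all genes. Without B1, 3 were higher and 4 lower (46.7% together, against 2.79% of all genes).

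Genes of the naive state and of homing had 26 measured members. In the 6 libraries 1 lay above and 1 below B (7.69% together, against 15.1% of all genes). Without B1, 3 were higher and 1 lower (15.4% together, against 2.79%). Il7r, the receptor for the survival cytokine interleukin 7, read 131, 83.7 and 71.9 RPKM in B1, B2 and B3 and 149, 146 and 123 RPKM in C1, C2 and C3, with B1 inside the range of C (0.58 ± 0.20, adjusted p = 0.471; 0.83 ± 0.10 without B1, adjusted p = 0.0084). Igfbp4, which encodes an insulin-like growth factor binding protein, read 394, 213 and 210 RPKM against 342 to 405 RPKM, again with B1 inside C (0.83 ± 0.08 without B1, adjusted p = 0.0027). Pdlim4, a LIM domain protein gene, separated all 6 libraries, at 16.9 to 29.3 RPKM in B and 32.8 to 38.0 RPKM in C (0.82 ± 0.13 without B1, adjusted p = 0.022). Ccr9, a gut-homing receptor, was the 1 lower member, at 2.53 to 2.84 RPKM in B2 and B3, 0.94 RPKM in B1 and 1.08 to 1.49 RPKM in C. Its log2 difference was -0.50 ± 0.30 with all 6 libraries (adjusted p = 0.604, limma) and -0.88 ± 0.15 without B1 (adjusted p = 0.031).

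Effector and memory genes were also split, with 2 of 13 measured above and 2 below B (30.8% together, against 15.1% of all genes). Without B1, 4 were higher and 2 lower (46.2% together, against 2.79%). Il2rb, the beta chain shared by the interleukin 2 and 15 receptors, read 8.61, 32.2 and 32.0 RPKM in B1, B2 and B3 and 7.02 to 8.47 RPKM in C (-1.96 ± 0.09 without B1, adjusted p = 0.00032). Prf1, which encodes perforin, read 15.1, 11.7 and 10.2 RPKM against 16.2 to 18.7 RPKM (0.62 ± 0.10 without B1, adjusted p = 0.021). Vim, the intermediate filament vimentin, read 114, 84.1 and 89.6 RPKM against 114 to 119 RPKM, and Runx3, a factor of cytotoxic cells, 24.3, 17.6 and 16.9 RPKM against 22.7 to 24.5 RPKM. Both were higher in C without B1 (0.43 ± 0.05, adjusted p = 0.0095, and 0.44 ± 0.07, adjusted p = 0.019), and for both B1 was at the level of C.

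Among 31 cytokine receptor and JAK-STAT genes, 8 lay below and 1 above B in the 6 libraries (29.0% together, against 15.1% of all genes). Without B1, 7 were lower and 2 higher (29.0% together, against 2.79%). Il10ra, the receptor chain for interleukin 10, read 8.37, 9.35 and 9.88 RPKM in B and 6.59 to 7.06 RPKM in C (-0.41 ± 0.09, adjusted p = 0.471; -0.47 ± 0.09 without B1, adjusted p = 0.038). The others lower without B1 were Il2rb, Il6st, Il2ra, Il18r1, Stat5a and Stat5b, and the higher ones Il7r and Jak2.

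For the receptor itself and its nearest signalling proteins the shares were near those of all genes. Of 24 genes of the TCR complex and proximal signalling, 1 lay above and 2 below B (12.5% together, against 15.1% of all genes), and 0 passed without B1 (against 2.79%; median -0.04 with and without B1). Plcg1, the phospholipase that makes the second messengers, read 102, 113 and 106 RPKM in B and 91.2 to 96.6 RPKM in C (-0.20 ± 0.06, adjusted p = 0.471), and Fyn, a Src family kinase, 126, 141 and 142 RPKM against 107 to 123 RPKM (-0.23 ± 0.07, adjusted p = 0.471). Of 39 intracellular negative regulators, 9 lay below and 3 above B (30.8% together, against 15.1% of all genes). Without B1, 9 were lower and 2 higher (28.2% together, against 2.79%). Ubash3b, the phosphatase Sts-1, read 12.3, 17.0 and 16.6 RPKM in B and 7.64 to 10.4 RPKM in C (-0.67 ± 0.15, adjusted p = 0.471; -0.82 ± 0.13 without B1, adjusted p = 0.027). Rgs10, a brake on G protein signalling, read 84.7, 108 and 110 RPKM against 71.8 to 81.2 RPKM (-0.49 ± 0.07 without B1, adjusted p = 0.012). Rgs16, of the same family, was low, at 0.455, 4.68 and 3.48 RPKM against 0.189 to 0.565 RPKM, with B1 inside the range of C (-2.33 ± 0.23 without B1, adjusted p = 0.0035).

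Other genes chosen by size or by p belong to none of these programmes. Among the largest differences without B1, Tmevpg1, a long noncoding RNA beside Ifng, read 0.27, 5.61 and 5.53 RPKM in B1, B2 and B3 and 0.65 to 0.885 RPKM in C (-2.31 ± 0.14, adjusted p = 0.00046), and Cldn10, a claudin gene, 0.482, 4.44 and 3.96 RPKM against 0.155 to 0.695 RPKM (-2.31 ± 0.26, adjusted p = 0.0061). In both genes too B1 was close to C, inside its range for Cldn10 and below it for Tmevpg1. With all 6 libraries Tmevpg1 gave -1.315 ± 0.71 (adjusted p = 0.572) and Cldn10 -1.557 ± 0.58 (adjusted p = 0.471, limma). The difference was smaller and B1 lay between C and the other libraries of B, at 45.3 and 45.1% of the distance, in Adora2a, an adenosine receptor, at 8.45, 11.5 and 12.0 RPKM against 6.37 to 6.44 RPKM (-0.82 ± 0.08 without B1, adjusted p = 0.0035), and in Dnmt3a, a DNA methyltransferase, at 15.0, 19.0 and 17.7 RPKM against 12.5 to 12.8 RPKM (-0.51 ± 0.07 without B1, adjusted p = 0.014). Cfp, which encodes properdin, put B1 at 80.6% of the distance, at 11.5, 12.6 and 11.8 RPKM in B and 8.63 to 9.27 RPKM in C (-0.40 ± 0.07, adjusted p = 0.471; -0.43 ± 0.08 without B1, adjusted p = 0.045). On the higher side, Myo6, an actin motor, read 2.46, 1.86 and 1.85 RPKM against 3.09 to 3.73 RPKM (0.74 ± 0.12 without B1, adjusted p = 0.028), and Slc16a5, a monocarboxylate transporter family gene, 19.8, 13.9 and 14.7 RPKM against 22.1 to 25.3 RPKM (0.73 ± 0.08 without B1, adjusted p = 0.006). Nacc2, a BTB domain repressor, read 4.68, 2.93 and 3.13 RPKM against 5.54 to 6.22 RPKM (0.87 ± 0.10 without B1, adjusted p = 0.0078). Rab1a, of transport from the endoplasmic reticulum, separated all 6 libraries, with 14.8 to 15.2 RPKM in B and at least 17.8 RPKM in every library of C, and missed the threshold with and without B1 (adjusted p = 0.471 and 0.072).

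Within the Ly6 family 3 of 12 members were measured. Of the 3, 2 lay above B in the 6 libraries and passed as higher without B1, against 6.32% and 0.659% of all genes. With only 3 members measured, 1 of them the sort marker Ly6c1, nothing is read from this count. Ly6a, which encodes Sca-1, read 62.4, 46.5 and 50.9 RPKM in B1, B2 and B3 and 74.6, 67.4 and 93.3 RPKM in C1, C2 and C3 (0.55 ± 0.14, adjusted p = 0.471; 0.67 ± 0.13 without B1, adjusted p = 0.047). Ly6c1 gave 0.65 ± 0.09 without B1 (adjusted p = 0.0151). Both are interferon-responsive, and the wider list of 72 interferon-stimulated genes had 6 members above and 0 below B, with a median of -0.02. That is 8.33% above, near the 6.32% of all genes, and 4.17% passed without B1, against 2.79%. Without B1, 2 of the 72 were higher, Ly6a and Ly6c1 themselves, and 1 was lower, Ms4a4c at 15.8, 31.1 and 29.3 RPKM in B against 13.5 to 16.0 RPKM in C (-1.04 ± 0.09, adjusted p = 0.0022).

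For lists of housekeeping functions the counts without B1 are to be read against the 2.79% of all genes that passed. Counts of members above or below B are to be read against the 15.1% of all genes that did not overlap. Cytosolic ribosomal proteins had a median of 0.15 over 80 genes, with 3 above and 0 below B (3.75%), and 0.23 without B1, with 2 higher (Rpl14 and Rpl5). Oxidative phosphorylation had 11 of 74 above and 3 below B (18.9% together, near the share of all genes), and 0 passed without B1. Ndufa12 of complex I read 21.4 to 22.2 RPKM in B and 25.7 to 26.9 RPKM in C (0.28 ± 0.05, adjusted p = 0.471). MHC class I presentation (21 genes), glycolysis (18) and ribosome biogenesis (39) had no member past the threshold without B1, and Zfp zinc finger genes had 3 of 270 lower and 0 higher. In the cell cycle list (30 genes) 2 lay above and 4 below B, and the direction of Mki67 turned when C3 was left out. Its log2 difference was 0.40 ± 0.95 with all 6 libraries, 0.0096 without B1 and -0.86 without C3. With B1 and C3 both left out it was -1.25. Among stress and handling genes, 2 of 18 lay above and 2 below B (22.2% together). Txnip was higher without B1, at 274 to 322 RPKM in B and 345 to 352 RPKM in C (0.30 ± 0.05, adjusted p = 0.036).

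The differences were also computed without C3, the library with plasma and B cell transcripts. With B1 and C3 both left out, 590 genes passed, 178 higher and 412 lower in C, and they included all 280 genes that passed without B1 alone. The libraries kept are among those that selected the 280, so this overlap is no separate evidence. C3, like B1, was left out with its values known, so these calls also overstate the evidence. With C3 alone left out, 0 genes passed (limma) and 985 had an unadjusted p under 0.05. By mouse, C minus B correlated across 10019 genes at r = 0.36 between mice 2 and 3, at 0.01 between mice 1 and 2 and at -0.01 between mice 1 and 3, as a description. In mouse 1 the difference went with the GC content of the transcript (r = -0.42 over 9844 genes, against 0.03 and 0.02 in mice 2 and 3). With the trend in GC and length removed from each library, 0 genes passed in the 6 libraries and 316 without B1, of which 252 were among the 280.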

How the data were processed

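RNA was measured by polyA-selected RNA-seq (SMART-Seq v4 and Nextera XT, per the labels' protocols). The values are RPKM as deposited by the authors in a table of 10073 genes. STAR and the builds mm9 and mm10 are named in the submitters' processing notes, with no role given. Of 9705 to 9984 values examined per library, 100.0% were whole numbers of reads within 0.1 read, which gave each library's depth, and 99.1 to 99.7% of those reads lie in listed genes. The comparison used limma 3.58.1 (R 4.3.3), its variance prior following the mean level, on log2(RPKM + 0.5) in the 6 libraries, with Benjamini-Hochberg adjustment over 10019 genes. Folds are on that scale, which understates low genes, except ratios given as "times as high", which are of mean RPKM. SE is limma's. The fit was tested on simulated data with the spread of the libraries other than B1 and no library standing apart. That test does not show how the fit performs on these 6 libraries. Sort checks used an exact permutation test over 20 splits. Gene names, promoters and motif searches used RefSeq tables, with Python 3.11.15.

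Same-numbered libraries come from the same mouse, per the labels, so the mouse pairs them, although the haemoglobin genes did not follow these numbers and the pairing may be wrong. The correlations of same-numbered deviations from the population means were 0.03, -0.14 and 0.07, and with the mouse as a block 0 genes passed. Limma p-values of the main fit rest on the spread between libraries within each population, moderated over all genes. They treat libraries of the same mouse as independent. Without B1, population B is B2 and B3 only, so those p-values do not measure a spread between 3 mice.

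The named genes are the sort checks, up to 10 genes in each direction with the largest log2 difference past the threshold (with B1 left out, where any passed) where every mouse with both libraries in the fit had that sign (mice 2 and 3 without B1) and the higher population averaged 2 RPKM or more, the non-overlapping genes of smallest p with a difference of at least 0.3, and up to 4 members of each of 28 lists (2 where none passed). Other genes are named as chosen after their values were seen. Some genes that meet the rule are not reported here. Members, lists and the libraries left out were chosen with earlier results of these data known. The alternatives were other pseudocounts, filters, scalings and spreads, the mouse as a block, recovered reads with limma-voom, removal of GC and length trends, and leaving out libraries.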

Additional observations from a re-analysis of the deposited data

How the results depend on the processing

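No gene passed with all 6 libraries under pseudocounts of 0.1 and 1, no filter or one of 5 RPKM, median or quantile scaling, no trend, robust moderation, recovered reads or GC and length removal (797 to 1054 genes at an unadjusted p under 0.05). With the spread shared over all 12 libraries 1 gene (Dntt) passed, and that 1 was higher in C. With the mouse as a replicate block 0 genes passed (859 with an unadjusted p under 0.05). Leaving out each library in turn gave 0 to 280 genes, 0 to 66 higher and 0 to 214 lower, with 280 only without B1. Other settings without B1 follow. Leaving out B1 and C3 gave 590 genes, 178 higher and 412 lower. The replicate block with mouse 1 left out gave 60 genes, 4 higher and 56 lower, on fewer libraries. Added after seeing the data, and without B1, limma-voom on recovered reads gave 416 genes (102 and 314), GC and length removal 316 (87 and 229), and all 12 libraries but A1 and B1 gave 766 (275 and 491).

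Of 98 named genes, 63 passed without B1, against 2.79% of all genes tested. That count follows in part from the naming rule, which took genes that passed without B1. Directions turned only in genes of C3 or of red cells. Leaving out 1 library gave log2 differences of -0.97 to 1.95 for Cd74, -0.0097 to 0.32 for Ctss, -1.35 to 0.86 for Hbb-bs, -0.66 to 4.03 for Jchain, -0.86 to 1.17 for Mki67, -0.75 to 0.86 for Cd79a and -1.17 to 0.99 for Hba-a2. Without B1 and C3 they were -0.51 for Cd74, -0.036 for Ctss, -1.02 for Jchain, -1.25 for Mki67 and -0.63 for Cd79a, and limma-voom without B1 gave -0.33 for Mki67. In the remaining cases the cause was not tested. With 3 mice and 6.59 to 9.07 M reads, differences in genes near 0.5 RPKM were little resolved, and a gene that missed the threshold is not shown to be equal.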
